A study of Mus musculus with 6 samples.

Results

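The genes described here were picked by symbol as nuclear subunits of the oxidative phosphorylation complexes. Whether each of them encodes a subunit was not checked. They were measured in mouse embryonic stem cells with an intact or a disrupted Ddx5 gene. Members were the rows of the deposited expression table whose symbol begins with Nduf followed by a, b, c, s or v and a digit, is Sdha, Sdhb, Sdhc or Sdhd, or begins with Uqcr, with Cox and a digit from 4 to 8, or with Atp5. The rule took 80 of 10989 genes and used no measured value. By symbol they fell into 37 for complex I, 4 for complex II, 8 for complex III, 14 for complex IV and 17 for the ATP synthase. RNA came from the MPI-II embryonic stem cell line. The 2 wild-type (WT) libraries are labelled as replicates of DDX5+/+ cells, and the 4 knockout (KO) libraries as separate lines of DDX5-/- cells. Each KO line was grown from a single clone after a pair of guides had directed a Cas9 nickase to the second exon of Ddx5 and the cells had been selected with G418, per the labels' protocols. The labels describe no cloning or selection of the WT cells, so clonal origin and genotype cannot be told apart. WT and KO cells alike were kept on feeder cells, with serum, LIF (leukemia inhibitory factor) and inhibitors of MEK (PD0325901) and GSK3 (CH99021) in the medium. The series' design text speaks of triplicates, while the labels give 2 and 4 libraries. No label says whether the 2 WT libraries came from separate cultures, so the spread between them may be technical. The p-values rest on the spread within both groups, WT libraries and KO lines, moderated by that of all genes.

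Oxidative phosphorylation makes ATP in mitochondria. Complexes I and II pass electrons from NADH and succinate to coenzyme Q, complex III passes them to cytochrome c, complex IV hands them to oxygen, and the ATP synthase uses the proton gradient that complexes I, III and IV build. Most subunits are encoded in the nucleus. A few subunits exist as paralogs used in particular tissues or under low oxygen, such as muscle and testis forms of complex IV subunits. Naive embryonic stem cells are known to respire and to use glycolysis together.

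Values are normalized scores in deposited units with no fixed scale. Library totals lay between 14612799 and 14722877 units, and the sequencing depth is unknown. The target gene Ddx5 stood at 36433 and 36436 units in WT and at 5854, 8450, 12793 and 5659 units in KO lines 1 to 4. WT replicate 2 stood apart, with 131 genes listed at 0 against 13 to 19 in the other libraries. Of the 10 stem cell markers, all present in every library, Nanog was higher and Klf4 lower in the KO lines and 8 did not pass. The Nanog call was lost without WT replicate 2 or KO line 3 (adjusted p up to 0.0601), and without WT replicate 2 the list had 0 higher and 2 lower. The 10 markers summed to 171467 and 103071 units in WT and 126099 to 133994 units in the KO lines. Of the 15 measured feeder fibroblast markers, 13 were lower in the KO lines, against 7.34% of all genes. The calls of Acta2 and Dcn were each lost in 4 of 6 fits that dropped a library, and that of Thy1 in 1. Col6a1, Col6a2 and S100a4 passed the filter on low values only through the WT libraries, where they are high. Fits that dropped a WT library therefore did not test them. None of the markers was at 0 in any library, and their summed level was 70181 and 46880 units in WT and 38237 to 40295 units in the KO lines. Most of the KO sum was Fn1, at 36452 units in WT replicate 1 and all KO lines. In bulk RNA, fewer cells of a type and less RNA per cell cannot be told apart.

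Few respiratory subunits passed the test between KO and WT cells. Of the 80 members, 3 rose in the KO lines, 1 fell and 76 did not pass the test. Over all genes, 17.1% were called in either direction (9.75% higher and 7.34% lower). The gap depended on the fit. With libraries weighted by quality, 3.75% of the members were called against 3.48% of all genes, and without KO line 3, 5% against 5.21%. Without KO lines 1, 2 and 4 in turn, the members had 5%, 1.25% and 5%, against 11.1%, 4.3% and 13.1% of all genes. The 3 that rose were Cox6b2 and Cox7a1, which encode the testis form and the muscle form of complex IV subunits, and Ndufa4l2, a paralog of Ndufa4 known to be induced under low oxygen. The 1 that fell was Atp5e, the epsilon subunit of the ATP synthase. The test was limma with a mean-variance trend on log2 of the scaled value plus 1, two-sided, with p-values adjusted over all genes by the Benjamini-Hochberg method and a call at an adjusted p below 0.05.

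The median log2 fold change of the members, KO minus WT, was -0.004, beside 0.04 for all genes, with 39 members above 0 and 41 below. Of the 80, 67 had a log2 fold change under 0.5 in size. The unadjusted 95% confidence interval lay wholly within a 2-fold change either way for 65 members, or 81.2%, and for 70.9% of all genes. The KO lines lay all above both WT libraries for 12 members (24.1% of all genes did so) and all below for 7 (19.6% of all genes), so 19 did not overlap in either direction (43.7% of all genes). For the other 61 members the groups overlapped. These shares of non-overlapping members lie below those of all genes, and no test of that difference was made. A missed threshold does not show equal expression: of the 76 members that did not pass, 11 had an interval reaching beyond 2-fold.

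**Figure D1:**
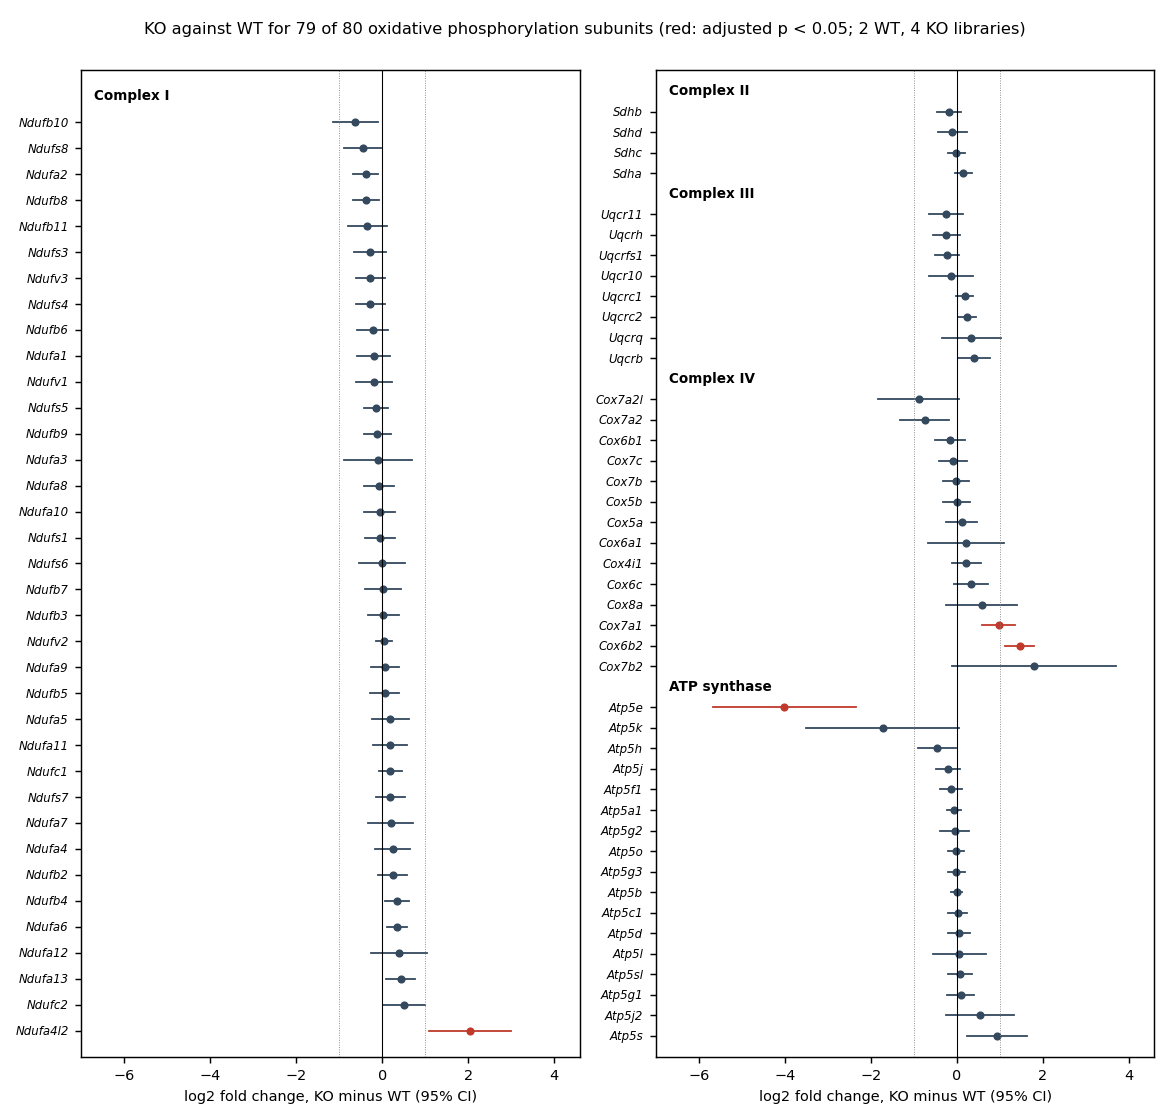
Log2 fold change of 79 of the 80 members, KO minus WT, with its unadjusted 95% confidence interval from limma (2 WT and 4 KO libraries), by complex. Red marks the 4 members with an adjusted p below 0.05, and the dotted lines mark a 2-fold change. Most intervals lie between the dotted lines. Most of the widest belong to members at least 2-fold apart between the WT libraries, and Atp5s is an exception. The gap between the 2 WT libraries itself enters the interval.

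The promoters of both complex IV genes that rose are shown beside those of their common paralogs, which did not rise, followed by that of Atp5e, the member that fell. They are RefSeq windows on build GRCm38.p6, from 250 bases before to 50 after the annotated start, written on the strand of the gene from 5' to 3', with CG dinucleotides in capitals. Cox6b2 lies at chr7:4753045-4753344 (minus strand), Cox6b1 at chr7:30626065-30626364 (minus), Cox7a1 at chr7:30183921-30184220 (plus), Cox7a2 at chr9:79759804-79760103 (minus) and Atp5e at chr2:174464052-174464351 (minus).
Cox6b2: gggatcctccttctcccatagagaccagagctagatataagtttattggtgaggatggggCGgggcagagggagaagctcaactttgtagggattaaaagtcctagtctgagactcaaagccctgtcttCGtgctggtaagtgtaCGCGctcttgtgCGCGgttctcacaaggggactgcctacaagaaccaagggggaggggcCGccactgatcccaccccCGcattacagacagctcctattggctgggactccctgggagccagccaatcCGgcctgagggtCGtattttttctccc
Cox6b1: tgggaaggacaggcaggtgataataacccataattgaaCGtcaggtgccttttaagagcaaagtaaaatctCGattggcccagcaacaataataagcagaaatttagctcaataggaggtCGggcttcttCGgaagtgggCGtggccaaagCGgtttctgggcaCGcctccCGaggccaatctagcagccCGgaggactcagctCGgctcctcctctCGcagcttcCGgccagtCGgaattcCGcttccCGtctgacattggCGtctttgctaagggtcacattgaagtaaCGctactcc
Cox7a1: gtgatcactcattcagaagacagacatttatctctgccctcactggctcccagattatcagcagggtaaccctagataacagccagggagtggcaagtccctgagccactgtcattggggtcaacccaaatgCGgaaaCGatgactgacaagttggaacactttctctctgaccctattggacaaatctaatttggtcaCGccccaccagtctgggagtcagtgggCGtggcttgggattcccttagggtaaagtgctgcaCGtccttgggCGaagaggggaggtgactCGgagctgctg
Cox7a2: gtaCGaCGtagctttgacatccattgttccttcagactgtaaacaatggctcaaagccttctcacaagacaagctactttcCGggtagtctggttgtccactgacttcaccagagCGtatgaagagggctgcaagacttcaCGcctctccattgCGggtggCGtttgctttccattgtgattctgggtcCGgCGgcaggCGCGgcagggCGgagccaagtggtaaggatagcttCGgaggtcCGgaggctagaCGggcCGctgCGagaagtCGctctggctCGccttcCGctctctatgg
Atp5e: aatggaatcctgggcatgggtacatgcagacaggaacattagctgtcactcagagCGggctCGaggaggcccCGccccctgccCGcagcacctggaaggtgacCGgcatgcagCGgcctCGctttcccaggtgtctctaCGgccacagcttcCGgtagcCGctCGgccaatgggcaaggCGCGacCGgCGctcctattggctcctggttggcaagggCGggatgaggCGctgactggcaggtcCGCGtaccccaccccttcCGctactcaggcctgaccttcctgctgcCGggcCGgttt

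The windows of the 2 complex IV genes that rose held 10 CG dinucleotides for Cox6b2 and 7 for Cox7a1. Those of their paralogs held more, 17 for Cox6b1 and 20 for Cox7a2. Atp5e had 22. Of the 8270 genes of the table with a RefSeq window, 13.7% had fewer than Cox6b2 and 8.44% fewer than Cox7a1, and the median was 22. No window was given for Ndufa4l2, which also rose. A window was given for 65 of the 80 members, whose median was 19. Among these, 17 held the letters TGCGCA, part of the site of the factor NRF1 (26.2%, against 15.7% of the table's genes), counted on both strands. The ETS core CCGGAAG, which GABPA recognizes, was in 15 (23.1% against 19.6%), the YY1 letters AAGATGG in 9 (13.8% against 7.79%), and AAGGTCA, the site of estrogen-related receptors, in 8 (12.3% against 2.9%). The ETS letters end in AAG, with which the YY1 and estrogen-related receptor letters begin, so matches can share bases. Another motif, ACGTG, the core of the hypoxia response element, was added after values had been seen and was in 15 (23.1% against 26.8%). Of the promoters printed, Cox6b1 held an ETS match, Atp5e held an ETS and an estrogen-related receptor match, Cox7a1 held an ACGTG match, and Cox6b2 and Cox7a2 held none of the 5. Such matches describe these letters only.

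Cox6b2 showed the firmest rise among the members. It encodes the testis form of subunit 6b, which sits on the face of complex IV turned to the intermembrane space (ENSMUSG00000051811, chromosome 7, 4751792 to 4753094, minus strand, build mm10). Its level was 571 and 511 units in WT, and KO lines 1 to 4 had 1724, 1530, 1614 and 1254 units. All 4 lines lay above both WT libraries, which were close together. Mean WT expression was 541 ± 42.4 units (SD, n = 2) and mean KO expression 1530.5 ± 201 units (SD, n = 4), 2.83 times as high (log2 1.47, SE 0.144, adjusted p = 0.00333, limma). The common paralog Cox6b1 stood at 2120 and 2408 units in WT and 2470, 2006, 2006 and 1712 units in the KO lines, with groups that overlapped (log2 -0.15, 95% interval -0.51 to 0.20). Cox6b2 was 26.9% and 21.2% of Cox6b1 in WT and 69.8%, 76.3%, 80.5% and 73.2% in KO lines 1 to 4. Per kilobase of annotated transcript, these shares were 28.5% and 22.4% in WT and 73.7% to 85% in the KO lines. The rise passed the test with each library left out in turn (log2 1.39 to 1.56).

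Cox7a1, the form of subunit 7a found mainly in heart and skeletal muscle, rose as well (ENSMUSG00000074218, chromosome 7, 30184144 to 30186078, plus strand). Its levels were 295 and 199 units in WT and 496, 495, 490 and 482 units in the KO lines. The 4 lines were nearly level with each other and above both WT libraries. The mean rose 1.99-fold (log2 0.97, SE 0.161, adjusted p = 0.0123). Without KO line 2 the log2 change was 0.97 and the adjusted p was 0.0504. The widely expressed paralog Cox7a2 stood at 1078 and 2069 units in WT and 910, 899, 939 and 796 units in the KO lines, all below WT, but did not pass (log2 -0.75, SE 0.238, adjusted p = 0.0713). Cox7a1 was therefore 27.4% and 9.62% of Cox7a2 in WT and 52.2% to 60.6% in the KO lines, or 45.9% and 16.1% against 87.5% or more per kilobase.

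Ndufa4l2 had the largest rise (ENSMUSG00000040280, chromosome 10, 127514967 to 127517154, plus strand). WT had 82 and 232 units, and KO lines 1 to 4 had 504, 712, 470 and 890. All 4 lines exceeded both WT libraries, and both groups were widely spread. The mean rose 4.1-fold (log2 2.05, SE 0.406, adjusted p = 0.0197). The call was lost without KO line 2 (adjusted p = 0.0638), and the log2 change lay between 1.37 and 2.72 with a library left out. Its gene overlaps Shmt2 on the opposite strand, and whether the authors' counting used strand is not given in the sources used here. Ndufa4 itself, long listed with complex I and now regarded as a subunit of complex IV, stood at 4092 and 2908 units in WT and 4138, 3828, 3602 and 4828 units in the KO lines, with overlapping groups (log2 0.24, adjusted p = 0.347). From a list of genes tied to the response of respiration to low oxygen, Bnip3, which promotes the removal of mitochondria, also rose (log2 1.40, adjusted p = 0.0197), a call lost without WT replicate 2 or KO line 2 (adjusted p up to 0.0893). With Ndufa4l2 this made 2 of 9 measured genes, or 22.2% against 17.1% of all genes, and the other 7 did not pass, among them Pdk1, Ldha and Lonp1.

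Atp5e, part of the central stalk of the ATP synthase, was the member that fell (ENSMUSG00000016252, chromosome 2, 174461072 to 174464105, minus strand). WT had 180 and 1346 units, and KO lines 1 to 4 had 24, 12, 20 and 14. The KO lines were all below both WT libraries, which themselves differed widely. The log2 change was -4.01 (SE 0.705, adjusted p = 0.0143). It was -2.61 without WT replicate 2 and -5.42 without WT replicate 1, and without KO line 2 the call was lost (adjusted p = 0.0504). With a pseudocount of 5 it was -2.72 (adjusted p = 0.0242). The feeder fibroblast markers were also lower in the KO lines but their sum put WT replicate 1 above replicate 2, the opposite order to Atp5e. Their part in the fall was not tested.

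**Figure D2:**
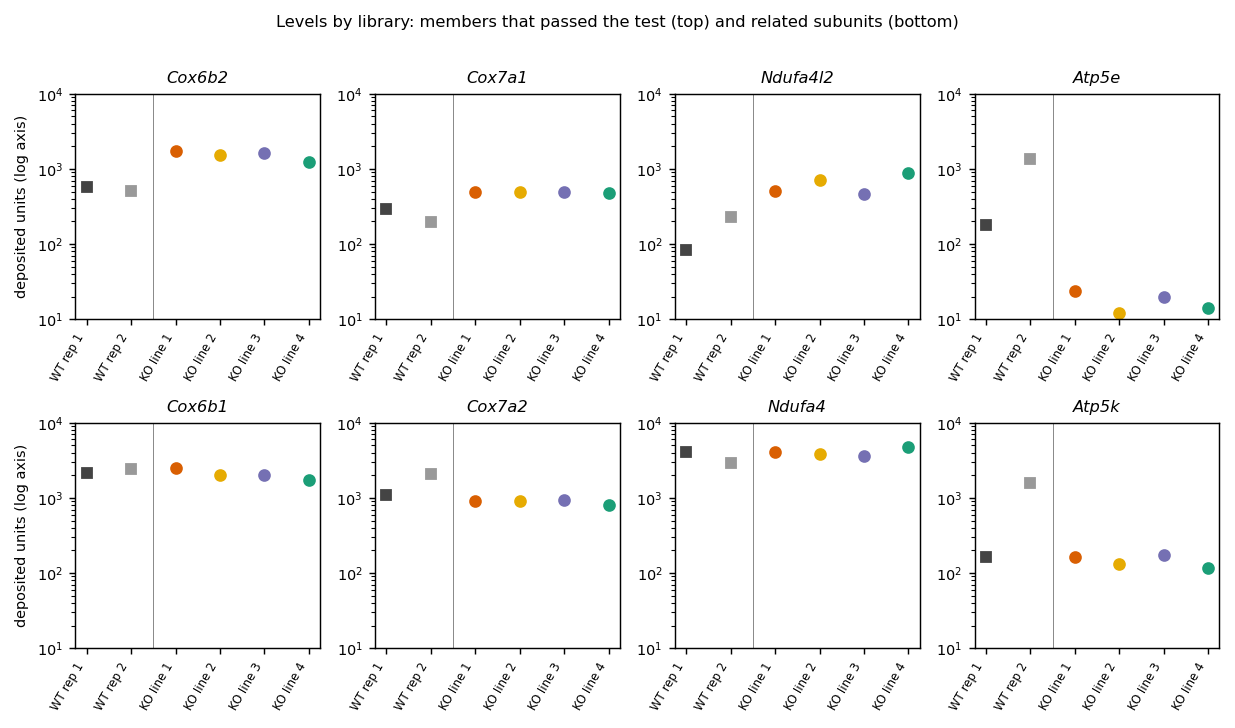
Level in deposited units (log axis) in each library for the 4 members that passed the test (top row) and for related subunits (bottom row). Squares are the 2 WT libraries and circles the 4 KO lines. Cox6b2 stands at 511 and 571 units in WT and at 1254 or more in the KO lines, Atp5e at 24 units or less in the KO lines, and Atp5k is high in WT replicate 2 only.

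Complex I oxidizes NADH and is the largest of the complexes. Counted by symbol, it had 37 members, Ndufa4 and Ndufa4l2 among them, and only Ndufa4l2 passed (2.7%, against 17.1% of all genes). The other 36 had log2 changes from -0.62 (Ndufb10) to 0.51 (Ndufc2). The complex had a median of -0.01. The core subunits carry the flavin and the iron-sulfur clusters. Ndufv2, which holds an iron-sulfur cluster beside the flavin, lay at 2537 and 2654 units in WT and 2670, 2745, 2669 and 2644 units in the KO lines, one of the narrowest spreads (log2 0.05, 95% interval -0.14 to 0.23). The WT and KO values overlapped.

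Ndufs1, the largest core subunit, had a log2 change of -0.05 (interval -0.40 to 0.30), and Ndufv1, which binds NADH and the flavin, of -0.20 (-0.62 to 0.23). Ndufs3 stood at -0.28 (-0.66 to 0.10) and Ndufs7 at 0.19 (-0.15 to 0.53). Ndufs8, an iron-sulfur subunit, lay at 664 and 1012 units in WT and 642, 635, 593 and 518 units in the KO lines, all below WT but close to WT replicate 1 (log2 -0.45, adjusted p = 0.124). The accessory subunit Ndufa6 came nearest to a call, at 1048 and 1043 units against 1410, 1280, 1422 and 1222 units (log2 0.34, SE 0.102, adjusted p = 0.0595). Ndufa2, another accessory subunit, was next, at 856 and 893 against 718, 664, 721 and 574 units (log2 -0.38, adjusted p = 0.074). These 2 genes lay on opposite sides of WT.

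Complex II, succinate dehydrogenase, is also an enzyme of the tricarboxylic acid cycle, and all 4 of its subunits were measured. None passed, against 17.1% of all genes, and the log2 changes ran from -0.18 to 0.15. Sdha, the flavin subunit, stood at 4740 and 5337 units in WT and 5450, 5450, 5549 and 5925 units in the KO lines, above both WT libraries by a small margin (log2 0.15, adjusted p = 0.246). Sdhc, a membrane anchor, stood at 1600 and 1694 against 1558, 1680, 1660 and 1654 units (log2 -0.01, interval -0.21 to 0.20). Sdhb, the iron-sulfur subunit, and Sdhd, the other anchor, had log2 changes of -0.18 and -0.11.

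Complex III, which carries electrons from coenzyme Q to cytochrome c, had 8 members and no call, against 17.1% of all genes called. Its core proteins Uqcrc1 and Uqcrc2 and the small subunit Uqcrb lay above WT in all 4 KO lines. Uqcrc1 stood at 6188 and 5464 units in WT and 6455, 6704, 6704 and 6574 units in the KO lines (log2 0.18, adjusted p = 0.15). Uqcrc2 stood at 2925 and 2652 against 3252, 3131, 3470 and 3417 units (log2 0.25, adjusted p = 0.0926). Uqcrfs1, the Rieske iron-sulfur protein, went the other way and overlapped WT, at 1404 and 1774 against 1409, 1288, 1330 and 1356 units (log2 -0.23, adjusted p = 0.203). The 8 log2 changes ran from -0.25 to 0.40.

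In complex IV, cytochrome c oxidase, 2 of the 14 members counted by symbol rose and 12 did not pass. The share called was 14.3%, against 17.1% of all genes. The common subunits showed no call. Cox4i1 stood at 7894 and 8442 units in WT and 7894, 10048, 11412 and 9078 units in the KO lines (log2 0.22, adjusted p = 0.311). Cox5a had a log2 change of 0.12 (interval -0.24 to 0.47) and Cox5b of 0.001 (-0.31 to 0.31). Cox7b2, a testis paralog of Cox7b, was low and was listed at 0 in WT replicate 2, with 130 units in WT replicate 1 and 176, 178, 117 and 120 units in the KO lines, so its groups overlapped (adjusted p = 0.158).

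In the ATP synthase, 1 of the 17 members counted by symbol fell and 16 did not pass (5.88% called, against 17.1% of all genes). Atp5b, the catalytic beta subunit, stood at 78894 units in all 6 libraries. This is the highest value of the table, shared by 10 genes in each library, so a difference could not be seen. Atp5a1, the alpha subunit, lay at 22788 units in WT replicate 1 and all 4 KO lines and at 25007 in WT replicate 2. For Atp5a1, too, 5 libraries held exactly the same value. Atp5o, which links the catalytic head to the outer stalk, had a log2 change of -0.02 (interval -0.21 to 0.18) and Atp5c1, the gamma subunit, of 0.02 (-0.21 to 0.25). The 3 genes for the identical c-ring subunit, Atp5g1, Atp5g2 and Atp5g3, had log2 changes of 0.09, -0.05 and -0.01. Atp5s, a low-level member called coupling factor B, stood at 60 and 35 units in WT and 102, 134, 94 and 82 units in the KO lines, above WT throughout, and did not pass (log2 0.93, adjusted p = 0.07).

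The 2 WT libraries disagreed on some members more than the groups did. They differed at least 2-fold for 11 of 80 members, or 13.8%, against 9.17% of all genes. The 4 higher in WT replicate 2 were Atp5k, Atp5e, Cox7a2l and Ndufa4l2, and the 7 lower there were Cox7b2, Cox6a1, Cox8a, Atp5j2, Ndufa3, Ndufa12 and Uqcrq. Atp5k, which encodes subunit e of the membrane part of the ATP synthase, stood at 162 and 1561 units in WT and 165, 131, 174 and 117 units in the KO lines. Cox7a2l, which helps complexes III and IV to join in supercomplexes, stood at 687 and 2127 against 760, 690, 608 and 556 units. In both, WT replicate 1 fell within the range of the KO lines and WT replicate 2 lay far above it.

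Cox8a and Cox6a1, small subunits of complex IV, showed the reverse. Cox8a stood at 8856 and 3190 units in WT and 8442, 7686, 8240 and 7502 units in the KO lines, and Cox6a1 at 7220 and 2491 against 5454, 4330, 5454 and 4610 units. WT replicate 2 was the lowest library for both. For all 80 members, WT replicate 1 lay within the range of the KO lines for 38 and WT replicate 2 for 21, while over all genes these shares were 32.4% and 26.0%. Members are short, with a median annotated transcript of 863 bases against 3180 for all genes. Among genes with a transcript under 1000 bases, the WT libraries differed at least 2-fold for 17.2% of all genes and for 8 of 47 members, and among longer ones for 8.64% and for 3 of 33 members. The 4 members called between KO and WT were all among the 47 shorter ones. Over all genes, 13.6% of the shorter and 17.3% of the longer were called. The part of transcript length in the WT differences or in the calls was not tested.

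**Figure D3:**
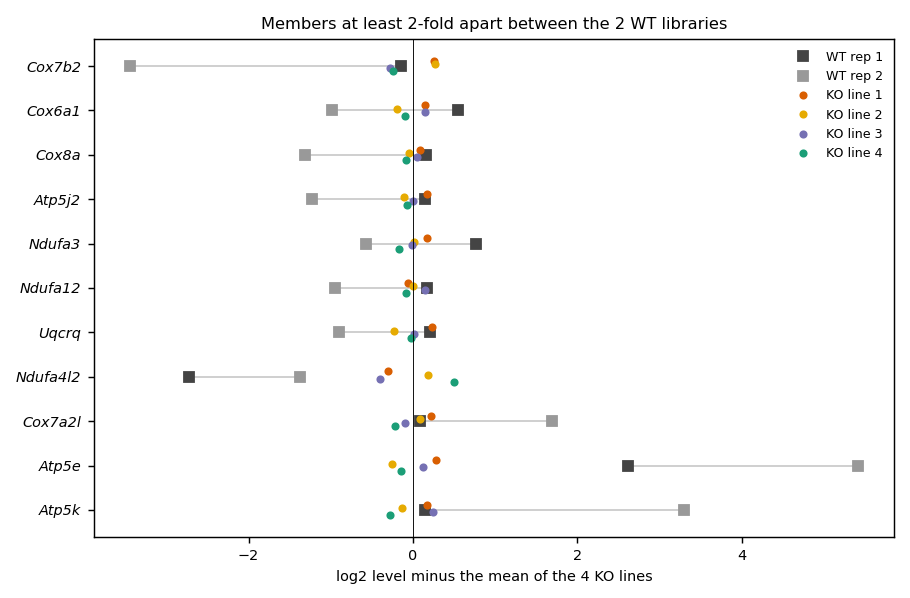
Log2 level in each library minus the mean of the 4 KO lines, for the 11 members at least 2-fold apart between the WT libraries. Grey lines join the 2 WT libraries (squares), and circles are the KO lines. For Cox7a2l, Atp5k, Cox7b2, Atp5j2 and Uqcrq, WT replicate 1 lies within the range of the KO lines, while WT replicate 2 lies outside it for all 11.

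The count of members called depended on which WT library was used. With WT replicate 2 as the lone WT library, 19 members were higher in the KO lines and 12 lower (18.3% and 11.8% of all genes), in all 38.8% of the members against 30.1% of all genes. With WT replicate 1 alone, 3 were higher and 5 lower (7.36% and 6.18% of all genes), in all 10% of the members against 13.5% of all genes. In these fits the lone WT library is assumed to vary like the KO lines. Both fits called 6 members. Of these, 4 had the same direction, Cox6b2, Cox7a1, Ndufa4l2 and Atp5e, and 2 had opposite directions. Ndufa3, an accessory subunit of complex I, had a log2 change of 0.58 against WT replicate 2 and -0.77 against WT replicate 1, and Ndufs6, another, of 0.44 and -0.46.

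**Figure D4:**
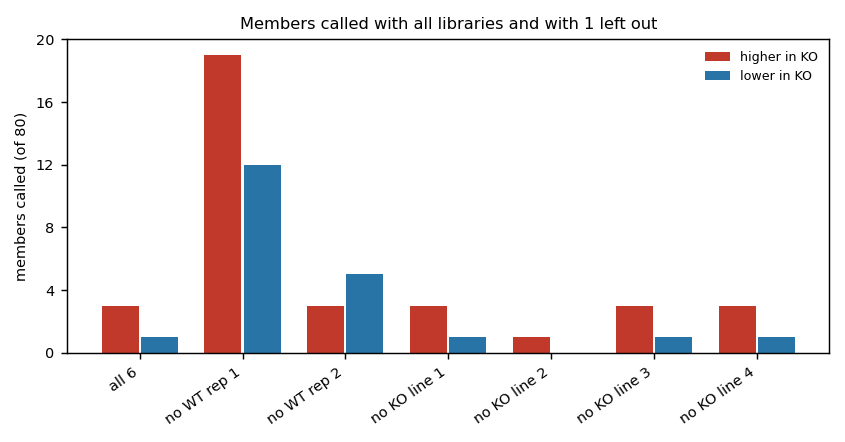
Number of the 80 members called higher (red) or lower (blue) in the KO lines with all 6 libraries and with each library left out in turn. The counts are 3 and 1 with all libraries, and 19 and 12 without WT replicate 1.

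Among themselves the KO lines spread slightly less for these genes than over all genes. The members' median level was 1615 units, against 552.5 for all genes, and the part of level in the spread was not tested. The median range over the 4 lines was 0.28 on the log2 scale, beside 0.33 for all genes, and the widest was 0.90 for Ndufa4l2. KO line 4 was the lowest line for 48 of 80 members, or 60%, while it was the lowest for 34.1% of all genes. KO line 1 was the highest for 35 members, or 43.8%, against 30.7% of all genes. The median deviation of the complex I members from their own mean over the libraries was -0.15 in KO line 4 and 0.07 in KO line 1. These are descriptions of single lines, with no test.

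Some of the spread among libraries ran with whole chromosomes. On chromosome 6, the 514 genes that are no members stood higher in KO line 4 than in the other lines (median log2 0.46). On chromosome 8 the 600 such genes stood higher in KO lines 2 to 4 than in line 1 (median log2 0.50). The WT libraries were split there too, with these 600 genes higher in WT replicate 2 than in replicate 1 (median log2 0.42). On the autosomes other than 6 and 8 this median was -0.06. Of the 4 members on chromosome 6, Ndufa4, Ndufa5 and Ndufa9 were highest in KO line 4 among the lines and Ndufb2 was second. Ndufa9, a complex I subunit near the coenzyme Q channel, had 1524 and 1536 units in WT and 1536, 1354, 1623 and 1903 units in the KO lines. The 3 members on chromosome 8, Cox4i1, Ndufa13 and Ndufb7, were each lowest in KO line 1 among the lines. Their log2 levels in KO lines 2 to 4 exceeded line 1 by 0.36, 0.23 and 0.39. With each chromosome centred on its other genes, the 4 calls among the members held, and Ndufb4, on chromosome 16, passed as well (log2 0.33, adjusted p = 0.0486).

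**Figure D5:**
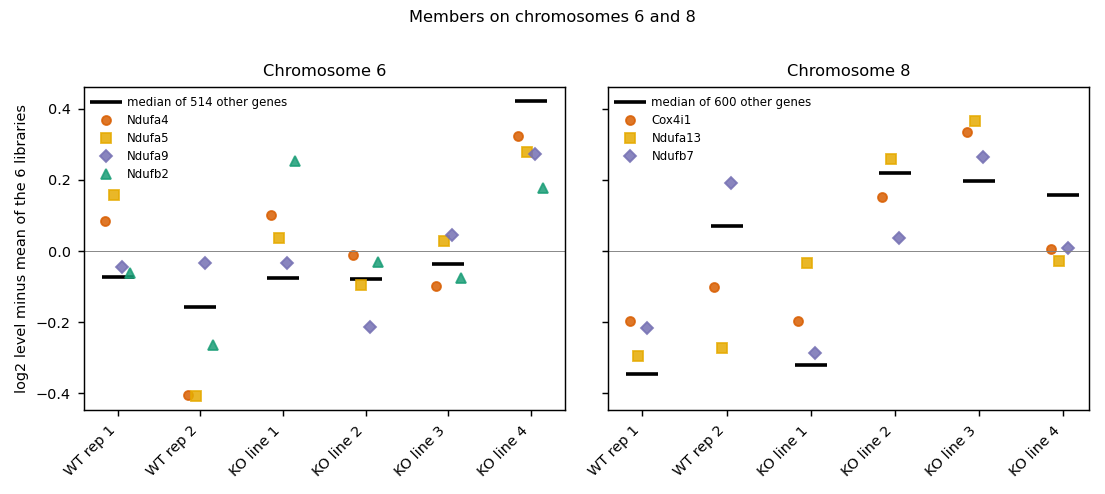
Log2 level minus the mean over the 6 libraries for the members on chromosomes 6 (left, 4 genes) and 8 (right, 3 genes), with bars for the median of the other genes of that chromosome. On chromosome 6 the bar is highest in KO line 4, and on chromosome 8 it is lowest in WT replicate 1 and KO line 1.

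Lists of genes around the complexes were read beside the 17.1% of all genes called (9.75% higher and 7.34% lower), and no difference between a list and other genes was tested. Of 46 measured assembly factors, 5 rose, none fell and 41 did not pass, so 10.9% were called (median log2 0.20, beside 0.04 for all genes). Ndufaf1, which helps to build complex I, rose from 210 and 199 units to 417, 419, 462 and 374 units (log2 0.98, adjusted p = 0.00712). Cox18, which inserts a core subunit of complex IV into the membrane, rose from 436 and 332 to 806, 729, 780 and 796 units (log2 1.00, adjusted p = 0.00712). Neither call was lost in any fit that dropped a library. Coa4 and Tmem70, factors of complex IV and the ATP synthase, rose by 1.16 and 0.80, and Bcs1l, which completes complex III, by 0.52. Dropping a library ended these calls in 4, 3 and 5 of 6 fits, where the adjusted p reached 0.0872, 0.0691 and 0.13. The factors called numbered 2 without KO line 2 or KO line 3 and 3 without KO line 1. In these fits 4.3%, 5.21% and 11.1% of all genes were called.

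None of the 19 measured electron carriers and coenzyme Q genes passed. Cycs, cytochrome c itself, came nearest, at 1261 and 488 units in WT and 1721, 1814, 1699 and 2568 units in the KO lines (log2 1.27, adjusted p = 0.0516). The 5 measured subunits outside the symbol rule gave no call either, and Cyc1, the cytochrome of complex III, had a log2 change of -0.003. No gene of the mitochondrial genome was among the rows used here. In the tricarboxylic acid cycle and pyruvate dehydrogenase list, 4 of 27 measured genes rose and 1 fell, or 18.5%, near the 17.1% of all genes. Idh2, a mitochondrial isocitrate dehydrogenase that makes NADPH, rose from 2652 and 2281 to 4759, 4404, 3989 and 4564 units (log2 0.84, adjusted p = 0.00657), a call that held with each library left out. Ogdh rose by 0.56, Pdk3 by 0.66 and Pcx by 0.53, and Pdhx fell by 0.44. Dropping a library ended these 4 calls in 2, 3, 3 and 6 of 6 fits, where the adjusted p reached 0.0576, 0.0757, 0.0779 and 0.12, and 1 gene of the list rose and none fell without KO line 2 or KO line 3.

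Among 15 measured regulators of respiratory genes, Ppard and Foxo1 rose by 0.62 and 0.60, and 13 did not pass, so 13.3% were called against 17.1% of all genes. Nrf1 and Yy1, whose letters were searched in the promoters, had log2 changes of 0.12 and -0.02. Of 13 measured genes for mitochondrial DNA maintenance and transcription, Tefm and Top1mt rose by 1.04 and 1.30 and 11 did not pass, so 15.4% were called. No call of these 2 lists held without KO line 2 or without KO line 3, where 4.3% and 5.21% of all genes were called. In the list of proton leak and nucleotide transport, 1 of 8 measured genes rose, or 12.5%. This was Slc25a31, the ADP/ATP carrier of testis, at 119 and 209 units in WT and 352, 332, 366 and 321 units in the KO lines (log2 1.05, adjusted p = 0.0208, lost without KO line 1, 2 or 3, adjusted p up to 0.0704). Slc25a5, the main carrier, was not called (log2 0.09).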

How the data were processed

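RNA from 2 WT and 4 KO libraries was sequenced. Per the submitters' processing notes, Bowtie2 2.2.0, RSEM 1.2.17 and build mm10 were used. What each did is not stated, and the normalization is not given in the sources used here. In the authors' table values are called CPM, but they are whole numbers with near-identical totals and the same maximum in every library, so they were treated as a normalized score deposited by the authors, and no read depth can be recovered. Values were divided by 14.7 units (the mean library total over 1000000), a pseudocount of 1 was added and log2 taken, which understates changes of low genes. A filter (scaled value of at least 1 in 2 or more libraries) removed no gene. Groups were compared using limma 3.58.1 (R 4.3.3) as fixed for the design, tested on simulated data. With 2 and 4 libraries, the smallest p of an exact permutation test is 0.0667. Positions and transcript lengths came from GENCODE M21 (mm10), which matched all 80 members. Of these, 10 shared at least 95% identity over at least 50% of a transcript with another gene, so their levels are uncertain. They were Atp5g2, Atp5h, Atp5k, Atp5l, Atp5o, Cox7c, Ndufb11, Ndufs3, Ndufs6 and Uqcrb. Named were the called members, fixed core subunits and isoform pairs, and, per companion list, up to 5 called genes. Members named for disagreement between the WT libraries, for the nearest misses, or on chromosomes 6 and 8 were chosen after their values were seen. 1 complex I member is counted throughout but not reported by itself here. The members and lists were chosen with earlier results of these data known. Alternatives covered normalization, pseudocount, filter, variance model, replicate block, chromosome centring and each library left out.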

Additional observations from a re-analysis of the deposited data

Results flagged for a closer look

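Ndufb4, an accessory subunit of complex I on chromosome 16, stood at 2510 units in KO line 1, apart from 2105, 2114 and 2128 units in the other lines. Dixon's test at 95% picked this library as far from the rest. Over 80 members, chance alone picks about 1 in 20 such groups, so a single case is no pattern.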

How the results depend on the processing

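With all libraries, 3 members were higher and 1 lower. Alternatives were quantile normalization, median-ratio scaling, pseudocounts of 5 and 0.25, a filter at 10 scaled units, no variance trend, library weights and chromosome centring. Across these, 2 to 4 members were higher and 1 was lower, Atp5e each time. The main filter removed no gene, so a fit without it repeated the main fit and is no separate check. Library weights ended the call of Ndufa4l2 (adjusted p = 0.0738). With a library left out, the higher members numbered 1 to 19, the lower 0 to 12, and the median log2 change of the members lay between -0.059 and 0.059. Without KO line 2, Cox6b2 was the only call. Ndufa3 ranged from -0.77 to 0.58 and Ndufs6 from -0.46 to 0.44 in these fits, the extremes being calls of opposite direction. In the fit with the replicate block, 0 members were higher and 0 lower, with 20 calls over all genes. The numbers mark replicates in WT and clones in KO, and same-numbered libraries deviated together only weakly (r = 0.14 and 0.10 across genes). WT replicate 1 and KO line 1 did share a low level of chromosome 8 genes outside the set (median deviation -0.35 and -0.32). Whether same-numbered libraries have more in common than the number was not tested. All-gene calls, 1878 with all libraries, fell to 382 with library weights and, leaving out KO lines 2, 3 and 1, to 472, 572 and 1223, and were 3304 without WT replicate 1. The feeder markers lower in KO numbered 9 with library weights and 6 with the replicate block. Under both, 0 stem cell markers were called. The depth is unknown, and 2 WT libraries that disagree limit what can be seen.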

Other observations

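The 5 genes outside the set whose levels followed the mean log2 level of the members most closely over the 6 libraries were Tfip11 (Pearson r = 0.991), Zfp580 (0.979), Ryr2 (0.978), Gcnt2 (0.977) and Mgat5 (0.976). With 6 libraries and 10989 genes, correlations of this size are a description only.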
